A study of Mus musculus with 24 samples.

Results

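The enzymes of serine and one-carbon metabolism were followed: *Phgdh*, *Psat1* and *Psph*, which make serine from a glycolytic intermediate, and *Shmt1*, *Shmt2*, *Mthfd1*, *Mthfd2*, *Mthfd1l* and *Aldh1l2*, which pass the carbon of serine along the folate cycle. They were picked by gene symbol, 9 of the 49315 genes counted, and all 9 had enough reads to enter the tests, which covered 16070 genes. RNA-seq was performed on MS03 cells, an immortalized murine Schwann cell (SC) line that is *Nf2*-/-, obtained by infecting cells of an *Nf2* flox/flox mouse with Cre. All 8 groups were cells of this line with this genotype, kept for 24 hours with either the solvent dimethyl sulfoxide (DMSO) alone or a compound against focal adhesion kinase (FAK) dissolved in it, with 3 libraries per group. At 1 μM each, cells received a FAK kinase inhibitor: defactinib, VS-4718, GSK2256098 or IN10018 (also called ifebemtinib). The remaining 3 groups received PROTACs, which tether a target protein to a ubiquitin ligase so that it is degraded: PROTAC FAK degrader 1 at 1 μM, and GSK215 and BSJ-04-0146 at 0.1 μM each. The labels call the 3 libraries of a group biological replicates without saying how the cultures were separated, so that P values measure the spread between these libraries, which may be partly technical. Since the same 3 DMSO libraries served every drug, the 7 comparisons with DMSO are not independent of each other.

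Serine can be taken up or made from 3-phosphoglycerate. PHGDH oxidizes it, PSAT1 transfers an amino group from glutamate, and PSPH removes the phosphate. The serine hydroxymethyltransferases, SHMT1 in the cytosol and SHMT2 in mitochondria, then split serine into glycine and a carbon unit carried on tetrahydrofolate. In mitochondria, MTHFD2 oxidizes this unit to formyl-tetrahydrofolate, from which MTHFD1L releases formate for export, whereas ALDH1L2 burns it to carbon dioxide with a gain of NADPH. In the cytosol, MTHFD1 joins formate back to tetrahydrofolate, and the carbon is used to build purines, thymidylate and methionine. Serine is also the starting material of sphingolipids, which SCs need for myelin. The transcription factor ATF4, made when amino acids run short or proteins misfold, is known to activate many genes of serine synthesis and of the mitochondrial folate pathway.

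Total counts per library ranged from 14472462 to 27449516. The libraries of the 3 PROTACs were shallower (14472462 to 21588406) than those of DMSO (22952048 to 27449516). The sparsest member, *Psph*, still had 459 to 3460 counts per library, and *Phgdh* had 7118 to 20382. Of the 12 SC markers, *Ncam1* was highest at 55.5, *Pmp22* was at 12.6, *Sox10* at 20.1 and *Ngfr* at 10.4 CPM (counts scaled to a common library total) with DMSO, whereas *S100b*, *Egr2* and *Gap43* were at 0.134 to 0.190 CPM. Markers of other cells were present in part. Of 5 fibroblast markers, *Col1a1* was at 392, *Col3a1* at 344 and *Pdgfra* at 12.4 CPM with DMSO, whereas the counts of *Dcn* did not exceed 3 and those of *Lum* were 0 throughout. Of 6 macrophage markers, *Cd68* was at 3.35 and *Csf1r* at 0.444 CPM, and *Ptprc* and *Adgre1* had at most 1 count in any library. Levels are given as CPM after TMM scaling, edgeR's correction for the composition of each library, or as CPM per kilobase of exon where genes are compared with each other. Changes are log2 fold changes from edgeR's quasi-likelihood test with the standard error (SE), the P value was adjusted by the Benjamini-Hochberg method over all 16070 genes, and a gene is called higher or lower, or said to rise or fall, where this was under 0.05. The 95% intervals of log2 fold changes are not adjusted for the number of genes. Gene-level counts cannot show whether exons of *Nf2* are missing. In bulk RNA, a smaller share of expressing cells and less transcript per cell cannot be told apart.

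The members lie on 7 chromosomes of GRCm38 (GENCODE M21). *Phgdh* spans chr3:98313170-98339990, *Psat1* chr19:15904678-15947337 and *Psph* chr5:129765558-129787449. *Shmt1* spans chr11:60788104-60811718 and *Mthfd1* chr12:76255298-76319803. Of the mitochondrial enzymes, *Mthfd2* spans chr6:83305691-83325908, while *Shmt2* (chr10:127517123-127522444), *Mthfd1l* (chr10:3973118-4167081) and *Aldh1l2* (chr10:83487450-83534140) share chromosome 10. *Mthfd1* and *Mthfd1l* are on the plus strand and the other 7 on the minus strand. Exons of *Psph* share 452 bases with *Cct6a* on the opposite strand, those of *Aldh1l2* share 1056 bases with *D10Wsu102e* and those of *Shmt1* share 184 bases with *Smcr8*, both on the opposite strand too. Because the strand setting of the counting is not given in the sources used here, whether reads of these shared stretches were split is uncertain. *Phgdh-ps1*, a copy of *Phgdh*, had at most 2 counts in any library.

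Promoter sequences are shown for 4 members that moved differently: *Psph* and *Mthfd2*, which rose with PROTAC FAK degrader 1, *Mthfd1*, which fell with it, and *Phgdh*, whose change with it did not pass the test. Each window runs from 250 bases before to 50 bases after the start of the transcript (RefSeq, GRCm38.p6), printed on the strand of the gene. Capitals mark a match to TGACNNNGC, the core of the antioxidant response element, read here on the opposite strand.
Psph, chr5:129787204-129787503, minus strand: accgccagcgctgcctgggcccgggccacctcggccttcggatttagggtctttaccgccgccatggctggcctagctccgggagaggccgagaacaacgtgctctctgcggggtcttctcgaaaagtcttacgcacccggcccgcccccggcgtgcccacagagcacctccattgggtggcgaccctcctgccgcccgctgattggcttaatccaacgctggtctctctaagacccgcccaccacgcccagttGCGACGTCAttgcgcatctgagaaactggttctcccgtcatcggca
Phgdh, chr3:98339920-98340219, minus strand: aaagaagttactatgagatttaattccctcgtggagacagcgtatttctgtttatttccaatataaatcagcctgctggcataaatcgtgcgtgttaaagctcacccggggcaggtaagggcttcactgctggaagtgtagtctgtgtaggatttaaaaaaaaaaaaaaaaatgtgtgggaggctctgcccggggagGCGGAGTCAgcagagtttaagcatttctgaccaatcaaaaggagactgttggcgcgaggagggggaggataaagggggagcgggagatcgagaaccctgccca
Mthfd2, chr6:83317555-83317854, minus strand: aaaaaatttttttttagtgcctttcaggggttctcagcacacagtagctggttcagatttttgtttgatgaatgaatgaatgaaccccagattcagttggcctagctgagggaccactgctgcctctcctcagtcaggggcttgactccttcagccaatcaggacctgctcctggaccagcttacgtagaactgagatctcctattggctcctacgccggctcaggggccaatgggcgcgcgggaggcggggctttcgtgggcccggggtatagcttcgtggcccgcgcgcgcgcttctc
Mthfd1, chr12:76254982-76255281, plus strand: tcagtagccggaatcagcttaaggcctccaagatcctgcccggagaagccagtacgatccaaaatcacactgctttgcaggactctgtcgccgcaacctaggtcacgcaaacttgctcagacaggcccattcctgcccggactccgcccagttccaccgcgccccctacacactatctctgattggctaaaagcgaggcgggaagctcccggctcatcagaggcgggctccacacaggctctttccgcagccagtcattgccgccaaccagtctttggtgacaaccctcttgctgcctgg
The match was GCGACGTCA in *Psph*, beginning at offset 4 from the start site, and GCGGAGTCA in *Phgdh*, at offset -53. Windows were found for 8 of the 9 members, with 2 for *Psat1* and none for *Aldh1l2*, and no other member window held this motif, which occurred in 12.39% of all 32851 windows. None of the 9 member windows held TGATGNAA, the core of the C/EBP-ATF response element (3.969% of all windows), or CACGTG, the E-box (7.15% of all windows), on either strand. A match or its absence describes only these letters. The *Psph* window had 65.0% G and C with 28 CpG, against 47.7% and 11 for *Phgdh*, 55.7% and 15 for *Mthfd2*, 59.0% and 16 for *Mthfd1*, and medians of 52.67% and 7 over all windows.

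In DMSO-treated cells, the synthesis of serine was unevenly expressed along its 3 steps. Per kilobase of exon, the level of *Phgdh* was 308 ± 3.22 CPM per kb (mean ± SD, n = 3), that of *Psat1* 137 ± 1.72 and that of *Psph*, the last step, 15.8 ± 0.275. *Shmt2* stood at 153 ± 1.63 CPM per kb, 4.15 times *Shmt1* at 36.9 ± 1.02. Among the enzymes that act on the carbon unit afterwards, *Mthfd1* (64.0 ± 1.65) and *Mthfd2* (61.1 ± 1.87) had like levels, with *Mthfd1l* at 39.7 ± 0.502 and *Aldh1l2* lowest at 15.5 ± 0.502. The mitochondrial form of the hydroxymethyltransferase outweighed the cytosolic form in these cells, whereas the levels of *Mthfd2* and *Mthfd1* were close.

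*Aldh1l2*, the mitochondrial formyl-tetrahydrofolate dehydrogenase, varied most of the 9 members, 17.2-fold between the highest and the lowest group mean. The 3 DMSO libraries had 119, 118 and 112 CPM, and the 3 libraries of PROTAC FAK degrader 1 had 623, 618 and 593 CPM. With GSK215 they had 37.4, 32.7 and 36.4 CPM, with BSJ-04-0146 39.1, 36.4 and 44.1 CPM and with VS-4718 38.7, 43.3 and 40.9 CPM. The levels split to both sides of DMSO with no overlap, up 5.25-fold with PROTAC FAK degrader 1 (log2 fold change 2.39, SE 0.0409, adjusted P = 3.30e-35) and down with the other 2 PROTACs and VS-4718. The log2 fold change was -1.72 (SE 0.0510, adjusted P = 4.87e-27) with GSK215, -1.55 (SE 0.0503, adjusted P = 7.16e-26) with BSJ-04-0146 and -1.51 (SE 0.0473, adjusted P = 1.81e-25) with VS-4718. GSK2256098 libraries, at 75.6, 71.1 and 70.4 CPM, lay between DMSO and VS-4718 and fell by 0.68 on the log2 scale (adjusted P = 1.18e-14). *Aldh1l2* rose slightly with defactinib (134, 129 and 137 CPM; log2 fold change 0.20, SE 0.0422, adjusted P = 5.43e-04) and IN10018 (137, 144 and 140.3 CPM; 0.27, SE 0.0423, adjusted P = 1.99e-05), and all 6 of these libraries were above all 3 DMSO libraries. *D10Wsu102e*, the overlapping gene, had smaller log2 fold changes, of -0.13 with PROTAC FAK degrader 1 and -0.50 with GSK215. Ranges of neighbouring groups overlapped for IN10018 and defactinib, for VS-4718 and BSJ-04-0146, and for BSJ-04-0146 and GSK215, so that these pairs have no order.

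**Figure D1:**
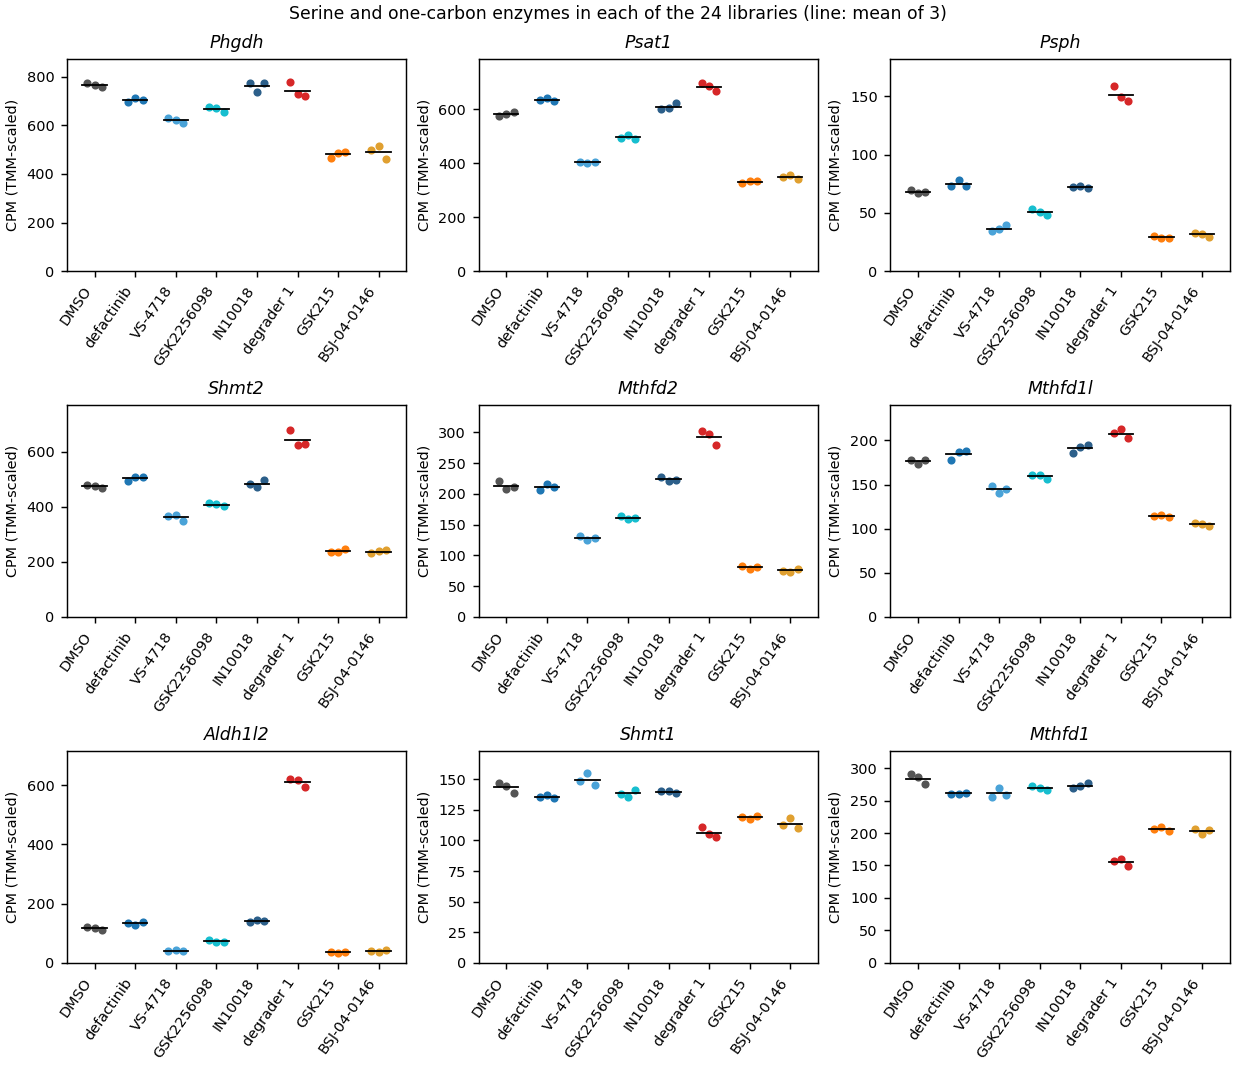
TMM-scaled CPM of each of the 9 enzymes (1 panel per gene, each axis from 0) in each of the 24 libraries, by group; points are libraries and lines are means of 3. *Aldh1l2*, *Psph*, *Shmt2*, *Mthfd2*, *Mthfd1l* and *Psat1* are highest with PROTAC FAK degrader 1 and lowest with GSK215 or BSJ-04-0146, whereas *Shmt1* and *Mthfd1* are lowest with PROTAC FAK degrader 1.

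Along the steps of serine synthesis, the last enzyme varied most and the first least, with 5.22-fold between the highest and lowest group mean for *Psph*, 2.06-fold for *Psat1* and 1.59-fold for *Phgdh*. *Psph*, the phosphatase, had 69.6, 67.2 and 68.4 CPM in the DMSO libraries and 159, 149 and 146 CPM with PROTAC FAK degrader 1, a 2.22-fold rise (log2 fold change 1.15, SE 0.0421, adjusted P = 1.08e-24). It had 34.3, 36.2 and 39.3 CPM with VS-4718, 53.0, 50.8 and 48.1 CPM with GSK2256098, 30.1, 28.6 and 28.3 CPM with GSK215 and 33.2, 31.9 and 29.5 CPM with BSJ-04-0146. All 12 of these libraries were below all 3 DMSO libraries, with log2 fold changes of -0.90 (SE 0.0474, adjusted P = 1.96e-18), -0.43 (SE 0.0460, adjusted P = 5.80e-09), -1.24 (SE 0.0519, adjusted P = 2.80e-22) and -1.12 (SE 0.0515, adjusted P = 5.93e-21), respectively. Defactinib libraries (72.9, 78.0 and 73.3 CPM) were above DMSO by 0.13 (SE 0.0439, adjusted P = 0.0323) on the log2 scale, but the call was lost without DMSO replicate 2 or 3, without defactinib replicate 2, with limma-trend and with no filter (adjusted P = 0.0115 to 0.177 over all alternatives). With IN10018, *Psph* had 72.2, 73.1 and 71.6 CPM and the test was not passed (log2 fold change 0.080, adjusted P = 0.255, 95% interval -0.0066 to 0.17). *Cct6a*, a chaperonin subunit gene that overlaps *Psph*, fell by 0.72 on the log2 scale with PROTAC FAK degrader 1 and by 0.66 with GSK215. Its change was opposite to that of *Psph* with PROTAC FAK degrader 1 and smaller than that of *Psph* with GSK215.

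*Psat1*, the aminotransferase, had 574, 581 and 589 CPM with DMSO and 695, 685 and 667 CPM with PROTAC FAK degrader 1, 17.4% higher (log2 fold change 0.23, SE 0.0277, adjusted P = 1.78e-09). It had 633, 641 and 629.9 CPM with defactinib, 9.18% higher than DMSO (log2 fold change 0.13, SE 0.0277, adjusted P = 7.14e-04), and 602, 603 and 624 CPM with IN10018, where the test was not passed (0.068, adjusted P = 0.100). *Psat1* was lower with VS-4718 (404, 400.5 and 405 CPM; log2 fold change -0.53), GSK2256098 (494, 503 and 489.8 CPM; -0.23), GSK215 (325, 334 and 335 CPM; -0.81) and BSJ-04-0146 (348, 355 and 341 CPM; -0.74), with adjusted P of at most 9.97e-08. No neighbouring groups in its order of levels overlapped.

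*Phgdh*, the entry enzyme and the most abundant of the 9 per kilobase, was highest with DMSO, at 773, 766 and 757 CPM. Its level with PROTAC FAK degrader 1 was 777, 729.5 and 719 CPM, overlapping DMSO, and the test was not passed (log2 fold change -0.044, adjusted P = 0.251, 95% interval -0.11 to 0.022). The upper bound does not reach the 0.23 measured for *Psat1* or the 1.15 measured for *Psph*. The sign of the *Phgdh* value turned with library totals in place of TMM (0.038). *Phgdh* was lower with defactinib (695, 712 and 704 CPM; log2 fold change -0.12), GSK2256098 (677, 672 and 655 CPM; -0.20), VS-4718 (631, 623 and 609 CPM; -0.30), BSJ-04-0146 (498, 515 and 462 CPM; -0.64) and GSK215 (467, 485 and 489 CPM; -0.67), with adjusted P of at most 0.00730. IN10018 libraries (774, 735 and 773 CPM) overlapped DMSO. Within each library, the ratio of *Psph* to *Phgdh* per kilobase was 0.0513 ± 0.000829 with DMSO, 0.117 ± 0.000407 with PROTAC FAK degrader 1 and 0.0347 ± 0.00202 with GSK215, so that the steps of the pathway did not keep a fixed proportion.

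The other 3 mitochondrial enzymes rose together with PROTAC FAK degrader 1 and fell together with VS-4718, GSK2256098, GSK215 and BSJ-04-0146. *Mthfd2*, the mitochondrial dehydrogenase and cyclohydrolase, had 220.4, 208 and 211 CPM with DMSO, 302, 297 and 279 CPM with PROTAC FAK degrader 1, 82.9, 78.2 and 81.7 CPM with GSK215 and 75.3, 73.7 and 78.2 CPM with BSJ-04-0146. It rose by 37.4% with PROTAC FAK degrader 1 (log2 fold change 0.46, SE 0.0322, adjusted P = 8.51e-16). It fell by 62.1% with GSK215 (log2 fold change -1.40, SE 0.0360, adjusted P = 6.23e-29) and fell by 64.5% with BSJ-04-0146 (-1.49, SE 0.0364, adjusted P = 9.13e-30). None of these groups overlapped DMSO. With the kinase inhibitors, *Mthfd2* had 132, 126 and 128 CPM for VS-4718 (log2 fold change -0.73, SE 0.0333, adjusted P = 2.66e-20) and 164, 159 and 161 CPM for GSK2256098 (-0.40, SE 0.0330, adjusted P = 9.23e-12). Defactinib (206, 217 and 211 CPM; -0.014, adjusted P = 0.819) and IN10018 (228, 221 and 223 CPM; 0.071, adjusted P = 0.149) did not pass the test, and the 95% intervals of these changes were -0.077 to 0.050 and 0.0078 to 0.14.

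*Shmt2*, the mitochondrial hydroxymethyltransferase, had 480.4, 477 and 470.5 CPM with DMSO and 679, 627 and 629 CPM with PROTAC FAK degrader 1, 35.5% higher (log2 fold change 0.44, SE 0.0318, adjusted P = 2.34e-15). Its level was 236, 238 and 248 CPM with GSK215 and 231, 240.2 and 243 CPM with BSJ-04-0146 (log2 fold changes -0.98, SE 0.0330, adjusted P = 2.20e-25 and -0.999, SE 0.0331, adjusted P = 1.26e-25). VS-4718 (367, 369 and 349.6 CPM) and GSK2256098 (413, 411 and 403 CPM) lay between, at -0.39 and -0.22 on the log2 scale. With defactinib (495, 510.2 and 508 CPM), all 3 libraries were above DMSO, but the test was narrowly missed (log2 fold change 0.083, adjusted P = 0.0554). It was passed with library totals (adjusted P = 0.0113), DESeq2 (adjusted P = 0.0421) and the 6 libraries fitted alone (adjusted P = 0.0224; 0.0113 to 0.166 over all alternatives). IN10018 (482, 472 and 497 CPM) overlapped DMSO. *Mthfd1l*, the mitochondrial formyl-tetrahydrofolate synthetase, had 177, 174 and 178 CPM with DMSO and moved less. It had 208, 213 and 202 CPM with PROTAC FAK degrader 1 (log2 fold change 0.24, SE 0.0306, adjusted P = 8.20e-09), 114, 116 and 113 CPM with GSK215 (-0.63, SE 0.0323, adjusted P = 2.16e-19) and 106, 105 and 104 CPM with BSJ-04-0146 (-0.75, SE 0.0326, adjusted P = 1.02e-21). It was also lower with VS-4718 (148, 141 and 145 CPM; -0.28) and GSK2256098 (161, 161 and 156 CPM; -0.15). With IN10018 it was higher (185, 193 and 195 CPM; 0.12, SE 0.0306, adjusted P = 0.00741), a call that was lost without IN10018 replicate 3 (0.10, adjusted P = 0.0573, the highest over all alternatives). Defactinib (178, 187 and 188 CPM; 0.066, adjusted P = 0.123) did not pass the test.

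The cytosolic enzymes had a different order of levels, with all 7 drugs at or below DMSO apart from VS-4718 for *Shmt1*. *Mthfd1*, the cytosolic enzyme that activates formate, had 290.5, 286 and 276 CPM with DMSO and its lowest level with PROTAC FAK degrader 1, at 156, 160.0 and 149 CPM. It fell by 45.4% (log2 fold change -0.87, SE 0.0308, adjusted P = 3.45e-25), in the same libraries in which the 4 mitochondrial enzymes rose. With GSK215 (206, 209 and 202 CPM) and BSJ-04-0146 (207, 199 and 205 CPM), *Mthfd1* fell by 27.5% and fell by 28.3%, respectively (log2 fold changes -0.46, SE 0.0304, adjusted P = 2.88e-16 and -0.48, SE 0.0305, adjusted P = 1.10e-16). Small falls with defactinib (261, 261 and 262 CPM; -0.12, SE 0.0296, adjusted P = 0.00237) and VS-4718 (255, 269 and 259 CPM; -0.12, SE 0.0296, adjusted P = 0.00101) passed the test. GSK2256098 (272, 269 and 266 CPM; -0.078, adjusted P = 0.0796) and IN10018 (269, 272 and 277 CPM; -0.057, adjusted P = 0.215) did not.

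*Shmt1*, the cytosolic hydroxymethyltransferase, had the narrowest range of the 9, 1.41-fold between group means. It had 147, 144 and 139 CPM with DMSO, 111, 105 and 103 CPM with PROTAC FAK degrader 1, 119, 117 and 120.0 CPM with GSK215 and 113, 118 and 110.3 CPM with BSJ-04-0146. All 9 PROTAC libraries were below the DMSO libraries, with log2 fold changes of -0.43 (SE 0.0347, adjusted P = 5.40e-14), -0.27 (SE 0.0347, adjusted P = 1.42e-08) and -0.33 (SE 0.0349, adjusted P = 1.19e-10). With the kinase inhibitors, *Shmt1* had 148, 155 and 145 CPM (VS-4718), 138, 135 and 141 CPM (GSK2256098), 140.4, 140.1 and 139 CPM (IN10018) and 135, 137 and 135 CPM (defactinib). None of these 4 passed the test, with 95% intervals of the log2 fold change of -0.0040 to 0.13, -0.12 to 0.015, -0.10 to 0.031 and -0.14 to -0.012. *Smcr8*, the overlapping gene, did not pass the test with any compound except BSJ-04-0146, where it rose by 0.26 on the log2 scale. Neighbouring groups overlapped throughout the order of *Shmt1* except between defactinib and GSK215.

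Counted by compound, the 9 members fell into 3 patterns. With GSK215, 9 of 9 members were lower and 0 higher, against a background of 27.2% of all 16070 genes lower and 27.4% higher, and with BSJ-04-0146 the count was again 9 lower and 0 higher (26.9% and 27.7% of all genes). VS-4718 lowered 8 members and raised 0 (18.9% of all genes lower, 20.4% higher), and GSK2256098 lowered 7 and raised 0 (6.09% lower, 6.36% higher). The falls ranged from -0.12 (*Mthfd1*) to -1.51 (*Aldh1l2*) on the log2 scale with VS-4718 and from -0.15 (*Mthfd1l*) to -0.68 (*Aldh1l2*) with GSK2256098. PROTAC FAK degrader 1 gave a mixed pattern, with 6 higher and 2 lower (34.1% of all genes higher, 32.7% lower): the 4 mitochondrial enzymes, *Psat1* and *Psph* rose, and both cytosolic enzymes fell. Defactinib and IN10018 gave small changes. With defactinib, 3 members (*Psat1*, *Psph* and *Aldh1l2*) were higher and 2 (*Phgdh* and *Mthfd1*) lower (11.4% of all genes higher, 11.0% lower), each by at most 0.20 on the log2 scale. With library totals in place of TMM, *Shmt2* and *Mthfd1l* were called too, which made 5 higher and 2 lower (12.8% and 8.46% of all genes). With IN10018, 2 members (*Mthfd1l* and *Aldh1l2*) were higher and 0 lower (6.44% higher, 6.85% lower).

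**Figure D2:**
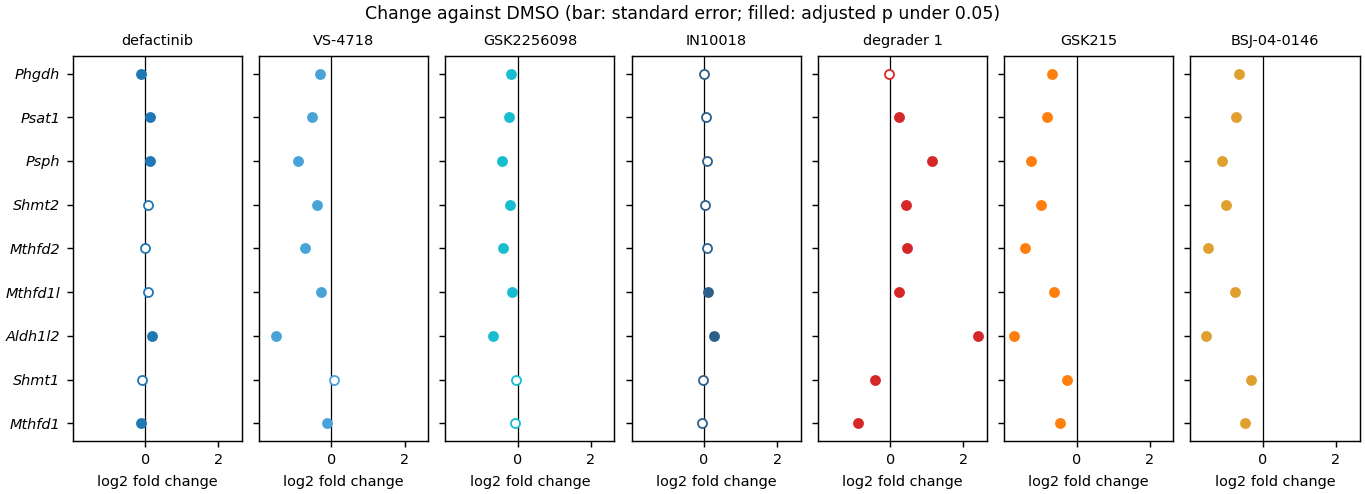
Log2 fold change of each of the 9 enzymes (rows) against DMSO for each of the 7 compounds (panels) from edgeR's quasi-likelihood test; filled points have an adjusted P under 0.05, open points do not, and bars of 1 standard error are mostly hidden by the points. With GSK215 and BSJ-04-0146 all 9 points lie left of 0, whereas with PROTAC FAK degrader 1 *Aldh1l2* reaches 2.39 and *Mthfd1* lies at -0.87.

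The levels of cell type markers also differed between the groups. The summed level of 12 SC markers, to which *Ncam1* gave the largest part with DMSO, was 108 to 113 CPM in DMSO libraries, 309 to 319.5 CPM with GSK215, 265 to 292 CPM with BSJ-04-0146, 168 to 184 CPM with VS-4718, 146 to 158 CPM with defactinib, 129.6 to 142 CPM with GSK2256098, 101 to 106 CPM with IN10018 and 98.3 to 102 CPM with PROTAC FAK degrader 1. It was thus above DMSO with GSK215, BSJ-04-0146, VS-4718, defactinib and GSK2256098. The summed level of 6 macrophage markers was 3.71 to 4.10 CPM with DMSO, 11.2 to 12.0 CPM with PROTAC FAK degrader 1, 7.90 to 9.34 CPM with BSJ-04-0146, 6.20 to 7.88 CPM with GSK215, 5.20 to 6.21 CPM with VS-4718, 4.58 to 5.28 CPM with defactinib, 4.28 to 4.60 CPM with GSK2256098 and 3.79 to 4.43 CPM with IN10018, with *Cd68* at up to 11.4 CPM in a library. The summed level of 5 fibroblast markers, mostly the collagen genes *Col1a1* and *Col3a1*, was 738 to 768 CPM with DMSO, 1126 to 1152 CPM with GSK215, 970.2 to 1021 CPM with VS-4718, 869 to 913 CPM with BSJ-04-0146, 856 to 916 CPM with GSK2256098, 852 to 949 CPM with defactinib, 715 to 765 CPM with IN10018 and 607 to 625 CPM with PROTAC FAK degrader 1. The part of these differences, and of the lower depth of the PROTAC libraries, in the changes of the enzymes was not tested. With library totals in place of TMM, the median change of all genes moved up by 0.12 with GSK215 and by 0.11 with BSJ-04-0146, and all 9 members were lower with both under that scaling too. Over all genes, that scaling turned the split of calls from 4407 higher and 4379 lower to 6190 and 2867 with GSK215, from 4451 and 4320 to 6018 and 2966 with BSJ-04-0146, from 3273 and 3030 to 4015 and 2394 with VS-4718, from 5484 and 5257 to 6280 and 4458 with PROTAC FAK degrader 1, from 1828 and 1766 to 2063 and 1360 with defactinib, from 1022 and 979 to 1242 and 808 with GSK2256098, and from 1035 and 1101 to 1197 and 959 with IN10018.

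Enzymes of parallel reactions in mitochondria and cytosol were compared inside each library, where scaling between libraries cancels. The ratio of *Shmt2* to *Shmt1* per kilobase was 4.15 ± 0.0708 with DMSO, 7.57 ± 0.123 with PROTAC FAK degrader 1, 2.53 ± 0.0520 with GSK215, 2.62 ± 0.116 with BSJ-04-0146 and 3.02 ± 0.0582 with VS-4718. Transcripts of the mitochondrial form prevailed in every library, most with PROTAC FAK degrader 1 and least with GSK215 and BSJ-04-0146, whose libraries overlapped. The ratio of *Mthfd2* to *Mthfd1* was 0.956 ± 0.0260 with DMSO, 2.40 ± 0.0530 with PROTAC FAK degrader 1, 0.501 ± 0.0211 with GSK215, 0.474 ± 0.0112 with BSJ-04-0146 and 0.628 ± 0.0323 with VS-4718. It was above 1 in all libraries of PROTAC FAK degrader 1, defactinib (1.03 ± 0.0267) and IN10018 (1.05 ± 0.0285) and below 1 in all others. *Mthfd1l* to *Mthfd1* was 0.621 ± 0.0194 with DMSO, 1.34 ± 0.0133 with PROTAC FAK degrader 1 and 0.556 ± 0.00226 with GSK215. The 3 libraries of a drug did not overlap those of DMSO in any of these ratios except *Shmt2* to *Shmt1* with IN10018 (4.32 ± 0.133; exact permutation P = 0.2, two-sided). For all others the exact permutation P was 0.10, the smallest that 3 against 3 libraries can give, so that no ratio can pass a threshold of 0.05, and adjustment over the 5 ratios and 7 compounds cannot lower it. Within the mitochondrial pathway, *Aldh1l2* to *Mthfd2* was 0.254 ± 0.00880 with DMSO and 0.970 ± 0.0153 with PROTAC FAK degrader 1. Per kilobase, transcripts of the enzyme that burns the carbon unit came close there to those of the enzyme that prepares it. This closeness depends on the annotated exon lengths, 7503 bases for *Aldh1l2* and 3487 for *Mthfd2*, since their mean CPM there were 611 and 293. With BSJ-04-0146 the ratio of *Aldh1l2* to *Mthfd2* (0.244 ± 0.0168) overlapped DMSO (exact permutation P = 0.4, two-sided). These ratios, 5 with that of *Psph* to *Phgdh* above, were chosen after the data had been seen.

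**Figure D3:**
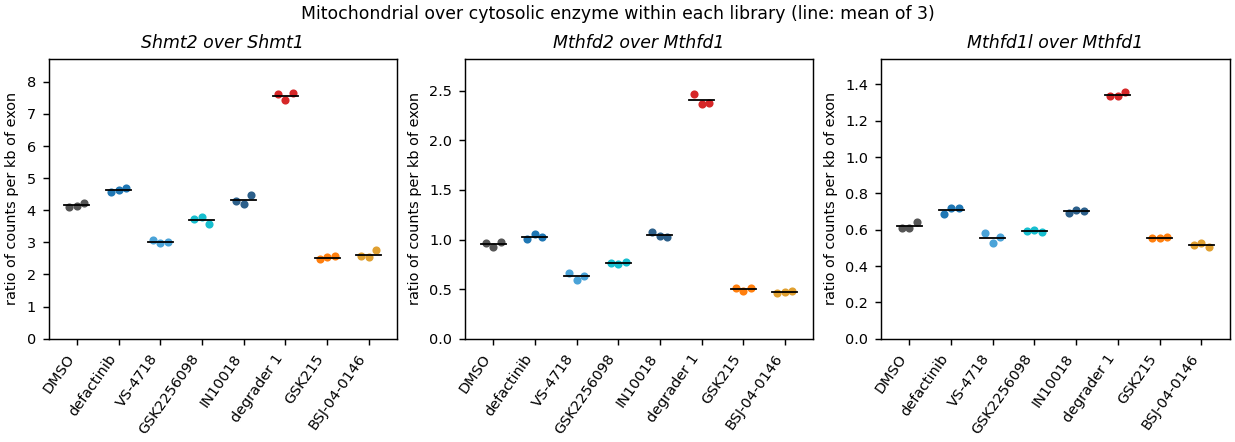
Ratio of counts per kilobase of exon of a mitochondrial to a cytosolic enzyme within each library (points) by group, with the mean of 3 as a line; the axes start at 0. Libraries of PROTAC FAK degrader 1 sit at 7.43 to 7.66 for *Shmt2* over *Shmt1* and at 2.37 to 2.46 for *Mthfd2* over *Mthfd1*, above all other groups.

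Compounds given at the same dose were compared directly in 4 comparisons. GSK215 and BSJ-04-0146, both PROTACs at 0.1 μM, differed in 2 of the 9 members. *Mthfd1l* was higher with GSK215 than with BSJ-04-0146 by 0.12 (SE 0.0344, adjusted P = 0.00736) on the log2 scale, 1 member of 9 against 9.88% of all genes. *Aldh1l2* was lower with GSK215, with a log2 difference of -0.17 (SE 0.0598, adjusted P = 0.0373), again 1 of 9 against 12.6% of all genes, but the libraries overlapped and the call was lost without GSK215 replicate 2, BSJ-04-0146 replicate 1 or BSJ-04-0146 replicate 3, with library totals and with the 6 libraries fitted alone (adjusted P = 0.00786 to 0.334 over all alternatives). The difference moved to -0.090 without BSJ-04-0146 replicate 3 and to -0.11 without GSK215 replicate 2. The other 7 did not pass the test, and the 95% intervals of their differences were -0.10 to 0.034 for *Phgdh*, -0.13 to -0.014 for *Psat1*, -0.24 to -0.0065 for *Psph*, -0.051 to 0.082 for *Shmt2*, 0.017 to 0.17 for *Mthfd2*, -0.0082 to 0.13 for *Shmt1* and -0.045 to 0.077 for *Mthfd1*. The far bound of each interval was smaller in size than the change of the same gene from DMSO with either compound.

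PROTAC FAK degrader 1 and defactinib, both at 1 μM, differed in all 9 members, 7 higher and 2 lower with the PROTAC (34.9% of all genes higher, 34.0% lower). The log2 difference was 2.20 (SE 0.0405, adjusted P = 2.98e-34) for *Aldh1l2*, 1.02 (SE 0.0418, adjusted P = 3.56e-23) for *Psph*, 0.47 (SE 0.0323, adjusted P = 3.54e-16) for *Mthfd2* and -0.75 (SE 0.0309, adjusted P = 4.21e-23) for *Mthfd1*. The smallest, *Phgdh* at 0.077 (SE 0.0338, adjusted P = 0.0419), lost its call without defactinib replicate 1 or 3, without PROTAC FAK degrader 1 replicate 1 and with no filter (adjusted P = 1.04e-04 to 0.304 over all alternatives), and the difference was 0.042 without PROTAC FAK degrader 1 replicate 1. Against the mean of the 4 kinase inhibitors, all at 1 μM, PROTAC FAK degrader 1 also had 7 members higher and 2 lower (36.7% and 35.6% of all genes), with *Aldh1l2* 7.08-fold and *Psph* 2.70-fold higher. That mean covers kinase inhibitors that moved these genes in different directions.

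Kinase inhibitors also differed from each other at the same dose. With VS-4718, 7 members were lower and 1 higher than with defactinib (16.0% and 18.0% of all genes). The log2 difference was -1.71 (SE 0.0470, adjusted P = 3.69e-27) for *Aldh1l2*, -1.03 (SE 0.0471, adjusted P = 3.40e-20) for *Psph*, -0.71 (SE 0.0334, adjusted P = 6.44e-20) for *Mthfd2*, -0.65 (SE 0.0279, adjusted P = 3.78e-21) for *Psat1* and -0.48 (SE 0.0320, adjusted P = 4.43e-15) for *Shmt2*. All 3 VS-4718 libraries were below all 3 defactinib libraries for these genes. The member that was higher was *Shmt1* (0.14, SE 0.0334, adjusted P = 0.00106), and *Mthfd1* did not pass the test (95% interval -0.058 to 0.058).

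Over the 8 group means, the members formed 2 sets. The correlation of the mean log2(CPM + 4) was 0.745 to 0.994 between any pair of the 3 serine synthesis and 4 mitochondrial enzymes and 0.946 between the cytosolic *Shmt1* and *Mthfd1*. Across the 2 sets it was -0.378 to 0.397. The closest pairs were *Mthfd2* and *Mthfd1l* (0.994), *Shmt2* and *Mthfd2* (0.994), and *Psph* and *Aldh1l2* (0.990). These values describe 8 points that share libraries and cell line. With PROTAC FAK degrader 1, 6 of the serine synthesis and mitochondrial enzymes were higher and both cytosolic enzymes lower. With GSK215 and BSJ-04-0146, all 9 members were lower. How far the 2 sets rest on PROTAC FAK degrader 1 alone was not tested. Among 9852 other named genes with at least 5 CPM, the most similar to *Psph* were *Asns* (0.998) and *Lars* (0.996), which encode asparagine synthetase and the leucyl-tRNA synthetase. Those most similar to *Mthfd2* were *Xpot* (0.994) and *Bsg* (0.993), the former a tRNA exporter, those most similar to *Shmt2* *Esf1* (0.994) and *Gars* (0.994), and those most similar to *Psat1* *Bsg* (0.988) and *Mars* (0.988), where *Mars* and *Gars* encode the methionyl- and glycyl-tRNA synthetases. Those most similar to *Mthfd1l* were *Bsg* (0.990) and *Znrf2* (0.986), to *Aldh1l2* *Phf10* (0.996) and *Fntb* (0.993) and to *Phgdh* *Mrps5* (0.995) and *Lias* (0.993). The cytosolic enzymes had other partners, *Nolc1* (0.997), a nucleolar protein gene, and *Ywhaz* (0.997) for *Mthfd1* and *Crlf3* (0.994) and *Mprip* (0.992) for *Shmt1*.

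The wider serine and folate pathway was read from a list of 40 further genes, of which 34 were tested and 6 (*Aldh1l1*, *Ftcd*, *Gldc*, *Folr2*, *Bhmt* and *Dmgdh*) had at most 6 counts in any library. With PROTAC FAK degrader 1, 10 were higher and 19 lower, 29.4% and 55.9% of the list against 34.1% and 32.7% of all genes, with a median log2 fold change of -0.28 against 0.0045 for all genes tested. With GSK215 7 were higher and 20 lower, 20.6% and 58.8% of the list against 27.4% and 27.2% of all genes (median -0.28). With BSJ-04-0146 the counts were 7 and 21, 20.6% and 61.8% of the list against 27.7% and 26.9% of all genes (median -0.24). In these 3 groups the share of the list that was lower was above that of all genes and the share that was higher was below it. The same held with VS-4718, GSK2256098 and IN10018, whereas with defactinib both shares were above those of all genes. VS-4718 gave 6 higher and 16 lower, 17.6% and 47.1% of the list against 20.4% and 18.9% of all genes. Defactinib gave 4 and 11, 11.8% and 32.4% of the list against 11.4% and 11.0% of all genes, GSK2256098 0 and 8, 0% and 23.5% of the list against 6.36% and 6.09% of all genes, and IN10018 1 and 5, 2.94% and 14.7% of the list against 6.44% and 6.85% of all genes. The median of the list lay below that of all genes with all 7 compounds, whereas that of the 9 members lay above it with PROTAC FAK degrader 1 (0.24), defactinib (0.066) and IN10018 (0.068). *Cth*, which makes cysteine from the product of serine and homocysteine, moved in the direction of the mitochondrial enzymes, with log2 fold changes of 1.79 with PROTAC FAK degrader 1, 0.20 with IN10018, -0.68 with GSK2256098, -1.11 with VS-4718, -1.71 with GSK215 and -1.89 with BSJ-04-0146. *Srr*, the serine racemase, rose by 1.16 with PROTAC FAK degrader 1, 0.59 with GSK215, 0.48 with BSJ-04-0146 and 0.42 with VS-4718. With PROTAC FAK degrader 1, *Tyms*, which makes thymidylate with a folate-borne carbon, fell by 1.41 on the log2 scale. *Slc19a1*, the reduced folate carrier, was at -1.32 there, -1.03 with BSJ-04-0146 and -0.27 with IN10018, where *Mat2a*, which makes S-adenosylmethionine, fell by 0.23. *Ggh*, which trims the glutamate tail of folates, was higher with GSK215 by 0.51, with BSJ-04-0146 by 0.34 and with defactinib by 0.19. With PROTAC FAK degrader 1 it went the other way, at 12.3 to 13.9 CPM against 16.1 to 17.7 CPM with DMSO. *Atic*, which carries out the last steps of purine ring synthesis, was at -0.73 with GSK215, -0.33 with VS-4718 and -0.16 with defactinib. Its mean was 461 CPM with DMSO, 278 CPM with GSK215, 280 CPM with BSJ-04-0146 and 326 CPM with PROTAC FAK degrader 1. With VS-4718, *Slc46a1*, another folate carrier, was at 0.25 and *Ahcy*, which clears S-adenosylhomocysteine, at -0.54. Mean *Ahcy* was 224 CPM with DMSO, 155 CPM with VS-4718, 147 CPM with GSK215 and 161 CPM with BSJ-04-0146. Defactinib gave 0.28 for *Sardh*, the sarcosine dehydrogenase, -0.17 for *Mtrr*, which reactivates methionine synthase, and -0.21 for *Gcsh*, a subunit of the glycine cleavage system. Mean *Gcsh* was 84.2 CPM with DMSO, 72.9 CPM with defactinib, 61.5 CPM with GSK215, 60.8 CPM with BSJ-04-0146 and 48.0 CPM with PROTAC FAK degrader 1.

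A list of 22 genes, *Atf4* and genes known to respond to the factor it encodes, holds none of the 9 members. With PROTAC FAK degrader 1, it had 21 higher and 1 lower (median 1.19; 34.1% and 32.7% of all genes higher and lower), with IN10018 17 higher and 2 lower (median 0.28; 6.44% and 6.85% of all genes higher and lower) and with defactinib 10 higher and 8 lower (median 0.059; 11.4% and 11.0% of all genes higher and lower). It had 0 higher and 20 lower (median -0.77; 20.4% and 18.9% of all genes higher and lower) with VS-4718, 0 higher and 19 lower (median -0.40; 6.36% and 6.09% of all genes higher and lower) with GSK2256098, 1 higher and 21 lower (median -0.91; 27.4% and 27.2% of all genes higher and lower) with GSK215 and 0 higher and 20 lower (median -0.93; 27.7% and 26.9% of all genes higher and lower) with BSJ-04-0146. *Atf4* itself had 303 ± 6.63 CPM with DMSO and 559 ± 19.4 CPM with PROTAC FAK degrader 1. Its log2 fold change was 0.88 with PROTAC FAK degrader 1, 0.14 with IN10018, -0.10 with defactinib, -0.41 with GSK2256098, -0.82 with VS-4718, -1.09 with BSJ-04-0146 and -1.16 with GSK215, and all 7 passed the test. The order of *Atf4* levels over the groups was not that of *Psph* or *Aldh1l2* for defactinib, where *Atf4* was lower and those members higher. The *Psph* call with defactinib was lost under some alternatives (adjusted P = 0.0115 to 0.177 over all alternatives). *Ddit3*, the stress factor CHOP, went from 19.7 ± 1.17 CPM with DMSO to 237 ± 3.26 CPM with PROTAC FAK degrader 1 (log2 fold change 3.59). *Nupr1*, a stress-induced regulator, rose by 2.98 there, and *Slc7a1*, a carrier of cationic amino acids, was the gene of the list that was lower (-0.15). *Chac1*, which degrades glutathione, had log2 fold changes of -3.07 with GSK215, -2.90 with BSJ-04-0146, -2.83 with VS-4718 and -1.02 with GSK2256098. *Slc7a11*, the cystine carrier, was at -2.75 with GSK215, -2.57 with BSJ-04-0146 and -1.10 with GSK2256098. Its mean was 30.2 CPM with DMSO, 5.20 CPM with VS-4718 and 56.6 CPM with PROTAC FAK degrader 1. *Trib3*, a pseudokinase gene of the stress response, fell by 2.61 with VS-4718, from 34.3 to 5.64 CPM. Its mean was also low with GSK215 (5.33 CPM) and BSJ-04-0146 (6.94 CPM), and was 237 CPM with PROTAC FAK degrader 1. *Cebpb*, a transcription factor gene, was the gene that was higher with GSK215 (0.52). *Pck2*, the mitochondrial enzyme that forms phosphoenolpyruvate, rose by 0.58 with defactinib and *Cebpb* by 0.54, whereas *Atf3*, another transcription factor gene, fell by 0.79 and *Ddit3* by 0.55, so that the list, like the members, was split with this compound. With IN10018, *Ddit4*, an inhibitor of mTORC1 signalling, rose by 0.78 and *Chac1* by 0.66, whereas *Slc7a5*, which carries large neutral amino acids, was at -0.15 and *Slc7a1* at -0.17.

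**Figure D4:**
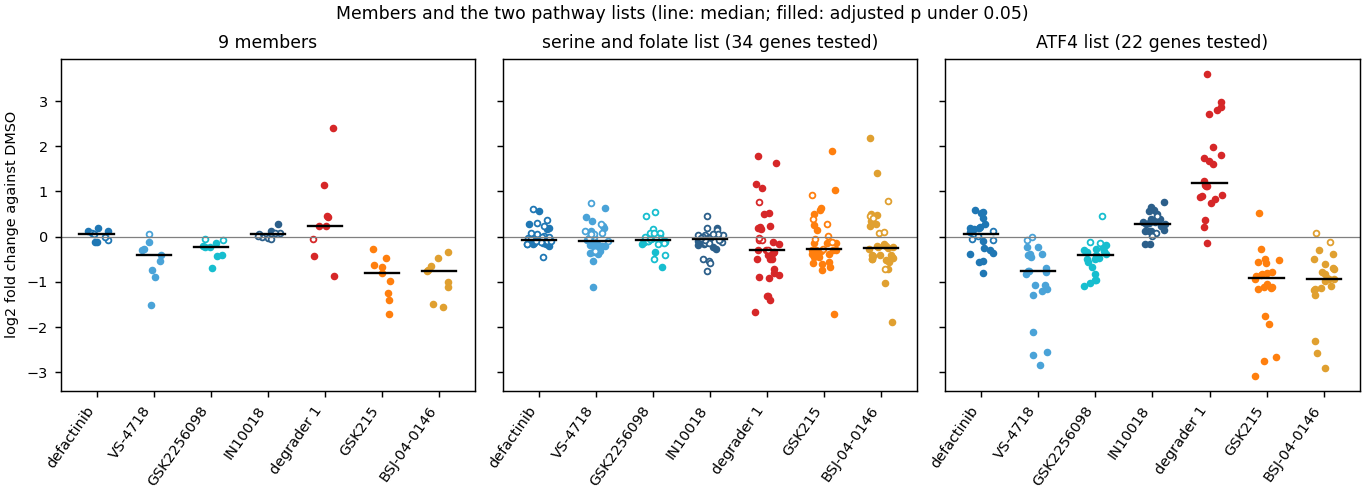
Log2 fold change against DMSO (vertical axis) by compound for the 9 enzymes, for the 34 tested genes of the serine and folate list and for the 22 genes of the ATF4 list; each point is a gene, filled where the adjusted P is under 0.05, and lines are medians. With PROTAC FAK degrader 1 the median is 1.19 for the ATF4 list and -0.28 for the serine and folate list.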

How the data were processed

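RNA-seq was performed on MS03 cells in 8 groups of 3 libraries. Per the labels, RNA was poly(A)-selected, and the submitters' processing notes name Trimmomatic 0.36, STAR 2.5.2b, featureCounts, Subread 1.5.2 and GRCm38. The annotation release and strand setting are not given in the sources used here. The authors deposited raw counts per Ensembl gene and library, which are whole numbers with no normalization applied. All columns were matched to samples by the library number (0 unmatched). Total counts were 14472462 to 27449516, and replicate pairs differed by more than counting noise (chi-square per degree of freedom 1.80 to 9.45).

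The main test was the quasi-likelihood F test of edgeR 4.0.16 under R 4.3.3, in a single model with a term for each of the 8 groups (16 residual df), TMM scaling and the filterByExpr filter. Two-sided P values of the 16070 genes that passed were adjusted together (Benjamini-Hochberg) and called at 0.05. The 95% intervals are the log2 fold change with a normal interval from its SE, which is the change divided by the square root of F. The fit was tested on simulated data with known changes. Exon lengths and coordinates came from GENCODE M21 and promoters from RefSeq. Members, gene lists, tests and alternatives were chosen with earlier results of these data known, so that no list is independent evidence. Named beside the members were, per list and compound, the 2 highest and 2 lowest genes past the threshold with at least 5 CPM and no overlap with DMSO, plus *Atf4*, and the 2 genes whose group means of log2(CPM + 4) correlated best with each member. Some genes that this rule or the marker lists hold are not reported here. Alternatives were DESeq2 1.42.0, limma-trend (limma 3.58.1) on log2(CPM + 4), library totals in place of TMM, no filter, only the libraries compared, a minimum change of 1.5-fold, the replicate number as a block and each replicate left out. The ratios within libraries, and their values with each replicate left out, were added after seeing the data.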

Additional observations from a re-analysis of the deposited data

How the results depend on the processing

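Of 99 member values (9 members in 11 comparisons), 81 kept their direction and their side of the threshold under every alternative run on single genes (all but the minimum change). Of the 76 that passed the test, 72 kept both, 0 reversed, and the other 4 (*Psph* with defactinib, *Mthfd1l* with IN10018, *Aldh1l2* between GSK215 and BSJ-04-0146, and *Phgdh* between PROTAC FAK degrader 1 and defactinib) lost the call under at least 1 alternative. Calls were gained by *Shmt2* and *Mthfd1l* with defactinib, *Shmt1* with VS-4718 and *Psat1* with IN10018 under library totals, by *Shmt2* with defactinib, *Mthfd1* with GSK2256098 and *Psat1* with IN10018 under DESeq2, and by *Shmt2* with defactinib and *Mthfd1* with GSK2256098 with only the libraries compared. Between GSK215 and BSJ-04-0146, *Mthfd2* gained a call with library totals, limma-trend and without BSJ-04-0146 replicate 3, and *Psat1* with DESeq2, limma-trend and without that replicate. With a minimum change of 1.5-fold, the members called were 7 each with GSK215 (15.7% of all genes) and BSJ-04-0146 (16.1%), 3 with VS-4718 (5.56%), 3 with PROTAC FAK degrader 1 (30.8%), 1 with GSK2256098 (0.778%), 0 with defactinib (1.65%) and 0 with IN10018 (0.660%). In the direct comparisons, this minimum left 0 for GSK215 against BSJ-04-0146 (1.58%), 3 for PROTAC FAK degrader 1 against defactinib (33.3%), 4 for VS-4718 against defactinib (3.88%) and 4 for PROTAC FAK degrader 1 against the mean of the kinase inhibitors (32.2%). GSK215 against BSJ-04-0146 gave 4 calls with limma-trend (25.5% of all genes) and 1 with only the libraries compared (20.8%). With each replicate left out in turn, the calls were 1 to 2 for IN10018 (8.70% to 11.5% of all genes) and 1 to 3 for GSK215 against BSJ-04-0146 (16.2% to 21.4%), and the cause of these changes was not tested.

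The values that changed sign had not passed the test before or after. With library totals, the log2 fold change became 0.00431 for *Mthfd2* with defactinib, 0.038 for *Phgdh* with PROTAC FAK degrader 1 and 0.020 for *Mthfd1* between VS-4718 and defactinib. Leaving out 1 replicate at a time gave log2 fold changes from -0.033 to 0.011 for *Mthfd2* with defactinib, -0.021 to 0.015 for *Phgdh* with IN10018 and -0.023 to 0.0074 for *Mthfd1* between VS-4718 and defactinib. Between GSK215 and BSJ-04-0146, they ran from -0.0070 to 0.029 for *Shmt2*, -0.076 to 0.00089 for *Phgdh* and -0.00070 to 0.028 for *Mthfd1*. Replicate numbers did not pair the samples, with correlations of deviations of -0.18 to 0.15 between drug and DMSO libraries of the same number (1 of 21 over 0.1) and 4 of 24 libraries closest to their own number. With the replicate block, the members called were the same, 5 of 5 with defactinib, 8 of 8 with VS-4718 and PROTAC FAK degrader 1, and 9 of 9 with GSK215.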

Other observations

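Purine synthesis, which consumes the formyl groups that the folate cycle carries, was read from 6 enzymes of the serine and folate list (*Ppat*, *Gart*, *Pfas*, *Paics*, *Adsl* and *Atic*), a subset chosen after the values were seen. None of the 6 was higher with any of the 7 compounds. All 6 were lower with GSK215 (median log2 fold change -0.38, range -0.73 to -0.28; 27.2% of all genes lower) and with BSJ-04-0146 (median -0.48; 26.9%), where the 9 serine and folate enzymes were lower too. With PROTAC FAK degrader 1, 5 were lower (median -0.67, range -0.91 to -0.067; 32.7% of all genes lower), on the side of the cytosolic *Mthfd1* and not of the mitochondrial enzymes. *Paics* was the exception, at -0.067. With VS-4718 (18.9% of all genes lower) and defactinib (11.0%) 5 were lower, with GSK2256098 (6.09%) 4 and with IN10018 (6.85%) 2. Since the subset was chosen on these values, its counts are a description.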
